A study of Mus musculus with 6 samples.

Results

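Serpins and secreted or membrane-bound serine proteases were followed in the luminal layer of the mouse uterus and in blastocysts on the evening of day 4 of pregnancy. The genes were chosen by symbol from the 23420 rows of the deposited tables. The rule used symbols only, but the choice was made with earlier results of these data known. They comprise every numbered serpin of clades A to I, every numbered *Prss*, *Tmprss* and *Klk* gene, and *Serping1*, *Plau*, *Plat*, *Spint1*, *Spint2* and *St14*, which gave 150 genes. By family these were 25 clade A serpins, 27 clade B serpins, 11 serpins of clades C to I, 2 plasminogen activators, 2 Kunitz inhibitors, 18 type II transmembrane proteases, 38 *Prss* proteases and 27 kallikreins.

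Serpins inhibit serine proteases by acting as a bait that traps the enzyme in a covalent complex, while Kunitz inhibitors block the active site reversibly. A few serpins have other tasks, such as *Serpinh1*, a collagen chaperone of the endoplasmic reticulum. At epithelial surfaces, matriptase (*St14*) and prostasin (*Prss8*) work with the Kunitz inhibitors *Spint1* and *Spint2*, and in the pregnant uterus proteolysis at the lumen is known for zona removal, fluid composition and tissue remodelling.

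The series tested how loss of Lif (leukemia inhibitory factor) from the uterine epithelium, and its replacement, affect uterus and embryo. Control females were *Lif*-floxed/floxed and received PBS, *Lif* eKO females were *Lif*-floxed/floxed *Ltf*-Cre/+ and received PBS, and a last group of *Lif* eKO females received recombinant Lif (rLif), 20 µg per head at 10 am and at 6 pm. All tissue was taken at 8 pm on day 4 of pregnancy, 2 h after the last injection in the rLif group. *Ltf*-Cre acts in the uterine epithelium, so stromal cells keep *Lif*, and the embryos were labelled *Lif*-floxed/+. The luminal layer was cut out by laser microdissection and RNA from independent samples was combined, and blastocysts were flushed from the horns and pooled. Each group was therefore 1 library without a replicate, no test between conditions was possible, and every interval below covers counting error only.

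Total counts were 23850565 to 28460465 in the luminal libraries and 18996158 to 19638852 in the blastocyst libraries. The targeted gene did not follow the luminal labels: *Lif* had 28 counts in the eKO-labelled library and 0 in the other luminal libraries. These counts cover the whole gene, of which only a part is floxed, so they do not tell whether the reads lie in the deleted part and are no check of the deletion. Luminal libraries are therefore named by their labels below, and every direction drawn from them rests on those labels. Markers of luminal epithelium summed to 6929, 8955 and 7389 CPM (counts scaled to a common library size) in the luminal libraries in the order control, eKO and eKO with rLif, and all 12 were detected there. The same markers summed to 8758, 9282 and 8631 CPM in blastocysts, so their sum does not set the tissues apart. The 12 stromal markers summed to 898, 1377 and 960 CPM and the 11 immune markers in the table to 111, 113 and 134 CPM. The 10 smooth muscle markers summed to 145, 170 and 105 CPM, and 5 of them were lower and 0 higher with rLif against control (median log2 ratio -1.57, and -1.02 with rLif against eKO). The part of these markers in the luminal values below was not tested. In blastocysts, the trophectoderm markers summed to 6654, 7257 and 6959 CPM, and none of the 9 was at 0. They summed to 2495, 3281 and 2040 CPM in the luminal layer, and *Krt8* and *Krt18* stood in both this list and that of luminal epithelium. In bulk tissue, fewer cells of a type and less RNA per cell cannot be told apart.

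Of the 150 genes, 65 had at least 10 counts summed over the luminal libraries and 53 over the blastocyst libraries, which was the filter for every comparison. Another 63 had no count in any luminal library, 64 had none in any blastocyst library and 39 had none in any of the 6 libraries. All 150 genes together took 0.835% of the counts in the control-labelled library, 0.506% in the eKO-labelled one and 0.845% in the eKO with rLif-labelled library. In blastocysts their share was 0.294%, 0.289% and 0.247% in the same order. The share in the luminal library labelled eKO was the low one of its tissue.

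Levels between genes are given per exon length, as counts per kilobase of exon at a common library size (RPKM). In the luminal layer the 3 genes with the highest mean level were *Serpina1e*, an α1-antitrypsin, *Spint2* and *Prss23*, a secreted protease of little known function. *Serpina1e* had RPKM levels of 829, 1069 and 1342 in the control-, eKO- and eKO with rLif-labelled libraries and ranked 67 among all genes by its mean. *Spint2* had 918, 665 and 655 RPKM and ranked 132. *Prss23* had 427, 104 and 812 RPKM and ranked 252. The next were *Serping1*, the C1 inhibitor of complement and contact activation, with 584, 93.7 and 559 RPKM, and *Prss8* with 274, 258 and 270 RPKM. *Prss8* shares exon sequence with *Kat8*, so its counts are uncertain. The α1-antitrypsin gene was thus among the most abundant transcripts of this layer in every library, while *Prss23* and *Serping1* changed their place with the label.

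In blastocysts the order was another. *Spint2* led with 235, 242 and 225 RPKM in control, eKO and eKO with rLif, and ranked 269 among all genes. *Serpinb6c*, an intracellular clade B serpin, had 219, 198 and 139 RPKM. *Serpinh1* had 233, 211 and 111 RPKM, and *Spint1* had 161, 163 and 168 RPKM. *Tmprss2*, *Prss8*, *Serpinb6a* and *St14* completed the leading 8 genes. Matriptase, prostasin and both of their Kunitz inhibitors were thus present together in embryo and luminal layer.

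**Figure D1:**
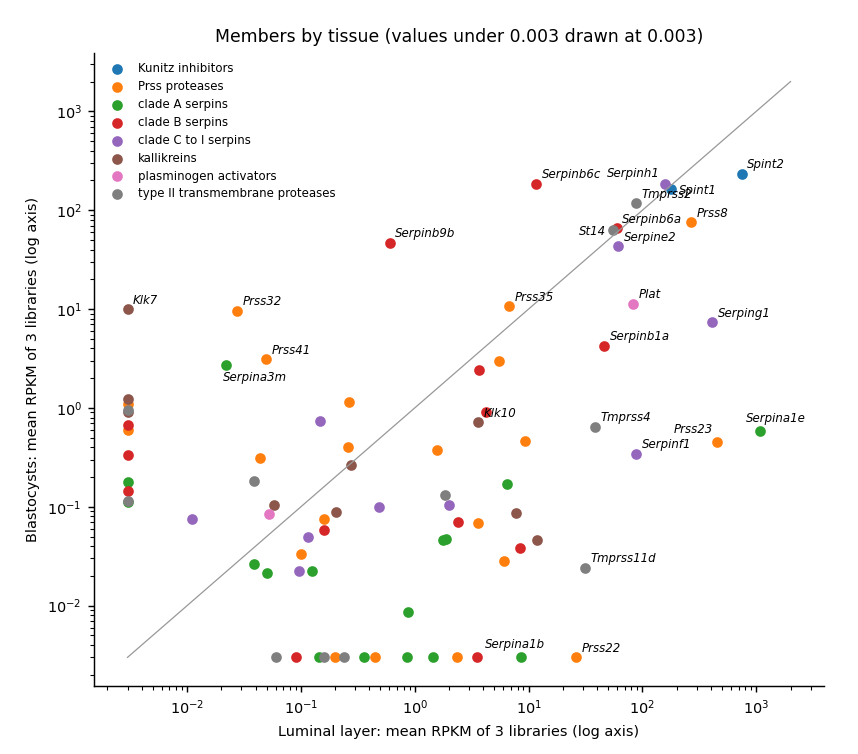
Mean RPKM over the 3 luminal libraries (x axis) and the 3 blastocyst libraries (y axis), both on log axes. Genes with at least 10 counts over the 6 libraries are drawn, coloured by family, with the line of equal level. Means under 0.003 are drawn at 0.003. Serpina1e and Prss23 lie far to the right, Klk7, Prss32 and Serpinb9b lie above the line, and Spint1, St14 and Serpinb6a lie near it.

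One horn of a female was flushed for blastocysts and the other frozen for microdissection, so both tissues of a group can come from the same females, and which animals they share is not given in the labels. The tissues were compared by a rule of separation without a test, which asked that the lowest CPM in one tissue exceed 2 times the highest in the other. Of 85 genes with at least 10 counts over the 6 libraries, 34 were higher in the luminal layer, where 24% of all 17081 genes were, and 17 were higher in blastocysts, where 22.2% of all genes were. The remaining 34 met neither limit. *Serpina1e* was separated by the largest ratio among genes with counts in both tissues, with a lowest luminal CPM 765 times its highest blastocyst CPM. The same ratio was 130 for *Prss23*, 121 for *Serpinf1*, which encodes the anti-angiogenic factor PEDF, and 11.4 for *Serping1*. The share of blastocyst-high genes was near the background, and the luminal share lay above it.

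Genes on the blastocyst side mostly had few or no luminal counts. *Klk7*, a chymotrypsin-like kallikrein known from skin, had 495, 205 and 354 counts in blastocysts and 0 counts in every luminal library. *Prss32* had 309, 363 and 181 counts in blastocysts and 0, 0 and 3 in the luminal layer. *Serpinb9b* had 1347, 1733 and 2433 counts against 41, 20 and 26. *Prss32* and *Serpinb9b* were named for this separation after their values were seen, and 18.4% of the windows of 100 bases in *Prss32* occur in *Gm15947*, so its counts are uncertain. *Serpinb6c* stood on the same side, with 5861, 5291 and 3792 counts against 350, 18 and 780. Its luminal level moved with the label although the level stayed under that of every blastocyst library.

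To ask which of these genes differ when epithelial Lif is lost, the luminal library labelled eKO was set against the control-labelled library. A gene was called when the whole 95% counting interval of its ratio of scaled counts lay above a log2 ratio of 1 or below -1. Of the 65 genes, 12 were higher and 19 were lower, that is 47.7%, while the same rule called 17.2% of all 15694 genes tested, 8.08% higher and 9.15% lower. The median log2 ratio was -0.38, beside 0.01 over all genes, with a library at 0 counts set to a floor of 3 and without genes at or under 3 counts in both libraries. By family, 7 of 16 *Prss* proteases and 4 of 9 type II transmembrane proteases were lower, with 1 and 0 higher, whereas 5 of 12 clade A serpins were higher and 3 were lower. Of 5 kallikreins 2 were higher and 0 lower.

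For rLif replacement, the eKO with rLif-labelled library was set against the eKO-labelled one, which is also in the comparison above, so the values of the 2 comparisons are not independent. Here 19 of the 65 genes were higher and 11 lower, with a background of 15.6% in either direction, 7.88% higher and 7.77% lower. The median log2 ratio was 0.19, beside -0.01 over all genes. Against the control-labelled library, the eKO with rLif-labelled library had 6 genes higher and 7 lower, with a background of 9.16% in either direction, 4.12% higher and 5.04% lower, and a median log2 ratio of 0.04 beside 0.01. Scaling by total counts shifted the median of all genes by -0.07, -0.11 and -0.18 in these 3 comparisons. With it, 5 genes were higher and 10 lower in the last one, beside 2.8% and 6.57% of all genes.

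**Figure D2:**
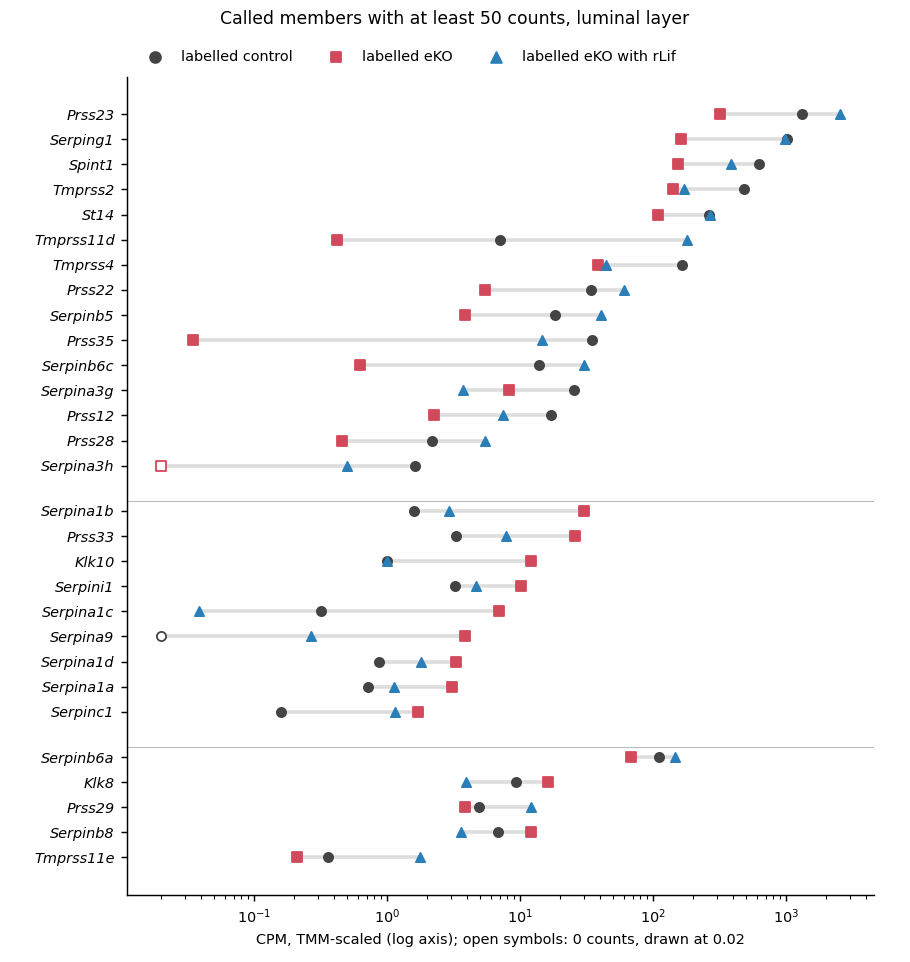
CPM on a log axis of the genes called in a luminal comparison that had at least 50 counts summed over the 3 luminal libraries, 1 point per library (circles control, squares eKO, triangles eKO with rLif; open symbols have 0 counts and are drawn at 0.02). The upper block holds genes called lower in the eKO-labelled library than in control, the middle block those called higher, and the lower block those called only in a comparison with rLif.

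Secreted and anchored proteases showed wide differences in the luminal layer. *Prss23* (GRCm38/mm10 chromosome 7, 89507785 to 89517586) had 33143, 9176 and 65596 counts in the control-, eKO- and eKO with rLif-labelled libraries. Its log2 ratio was -2.04 in eKO against control (95% counting interval -2.07 to -2.01) and 2.98 with rLif against eKO (2.95 to 3.01). The eKO-labelled library was the lowest and that with rLif the highest, 1.92-fold above control. An antisense gene, *Prss23os*, shares 20.0% of the 100-base windows of *Prss23*, and as counting by strand was not stated, reads of the pair cannot be told apart.

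*Prss35* (chromosome 9, 86743633 to 86757506), a family member that lacks the catalytic serine, was near 0 in 1 luminal library. Its 871 counts in control stood against 1 count in the eKO-labelled library and 377 counts with rLif. With 1 count in eKO, the log2 ratio against control was -9.95 with an interval from -15.26 to -7.47. With rLif the level stayed below control, at a log2 ratio of -1.25 (-1.43 to -1.08). In blastocysts *Prss35* had 553, 583 and 496 counts, so near-absence was seen in 1 of the 6 libraries.

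*Prss22*, a tryptase that can activate urokinase, had 856, 157 and 1572 counts. It was 6.2-fold lower in the eKO-labelled library than in control and 11-fold higher with rLif than in eKO. *Prss12*, neurotrypsin, had 430, 64 and 193 counts and was called in the same 2 comparisons, at 7.64-fold lower and 3.33-fold higher. *Prss33* went the other way, with 83, 740 and 203 counts, 7.84-fold higher in the eKO-labelled library than in control. *Prss16*, a protease of thymic epithelium, had 40, 0 and 1 counts and was at least 15.2-fold lower in eKO, taking 3 counts as the floor of the eKO-labelled library. The *Prss* genes thus did not all share 1 direction.

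*Prss28* and *Prss29* encode the implantation serine proteinases ISP1 and ISP2, which are known from the uterine glands of early pregnancy. *Prss28* had 55, 13 and 142 counts in the control-, eKO- and eKO with rLif-labelled libraries, with a log2 ratio of -2.27 in eKO against control (-3.26 to -1.38) and 3.59 with rLif against eKO (2.77 to 4.54). *Prss29* had 123, 111 and 315 counts, with a log2 ratio of -0.33 in eKO against control (-0.72 to 0.05), which was not called, and 1.65 with rLif against eKO (1.33 to 1.97). Both genes were highest with rLif. The call of *Prss29* with rLif against control, at a log2 ratio of 1.31 (1.01 to 1.62), was lost with scaling by total counts. The glandular markers in the table summed to 239, 268 and 298 CPM in the luminal layer and to 427, 545 and 373 CPM in blastocysts. In the luminal layer they were called as follows. Of 6 tested, 1 was higher and 0 lower with rLif against eKO (median log2 ratio 0.50). None was called with rLif against control (median 0.54) or in eKO against control (median 0.16). The part of these markers in the values of *Prss28* and *Prss29* was not tested.

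The 2 genes lie next to each other on chromosome 17, and the 250 bases before their starts are shown because neighbours of common origin had unlike values in the eKO-labelled library. The sequences are those of RefSeq on GRCm38.p6, at chr17:25308396-25308645, plus strand for *Prss28* and chr17:25318404-25318653, plus strand for *Prss29*. In the windows from 250 bases before to 50 bases after the start, the best local alignment had 159 identical bases in 224 columns, or 71.0%.
Prss28: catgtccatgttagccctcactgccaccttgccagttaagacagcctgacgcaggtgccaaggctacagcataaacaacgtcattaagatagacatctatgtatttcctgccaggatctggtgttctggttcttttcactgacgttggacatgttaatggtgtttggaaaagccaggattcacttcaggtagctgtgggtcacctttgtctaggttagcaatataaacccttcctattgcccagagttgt
Prss29: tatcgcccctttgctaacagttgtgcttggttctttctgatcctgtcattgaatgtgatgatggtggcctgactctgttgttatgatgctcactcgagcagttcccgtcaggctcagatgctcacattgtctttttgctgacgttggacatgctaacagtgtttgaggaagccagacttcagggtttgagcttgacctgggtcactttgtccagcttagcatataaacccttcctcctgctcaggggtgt

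The membrane-bound proteases of the epithelium differed in how far they were above eKO with rLif. *St14*, matriptase, had 6619, 3136 and 6919 counts, with log2 ratios of -1.26 (-1.33 to -1.20) in eKO against control and 1.28 (1.22 to 1.34) with rLif against eKO. *Tmprss2*, known for priming viral glycoproteins and for androgen control in prostate, had 12182, 4012 and 4419 counts. Its log2 ratio with rLif was 0.28 against eKO (0.22 to 0.34) and -1.51 against control (-1.56 to -1.46). *Tmprss4* was alike in its values, with 4151, 1103 and 1156 counts and log2 ratios of 0.21 (0.09 to 0.33) and -1.89 (-1.98 to -1.79). In the library with rLif, *St14* was thus at its level in control, while *Tmprss2* and *Tmprss4* were near that in eKO.

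*Tmprss11d* (chromosome 5, 86302854 to 86373387), the airway trypsin-like protease, had 177, 12 and 4650 counts. It was 16.8-fold lower in the eKO-labelled library than in control, and with rLif it was 427-fold above eKO and 25.5-fold above control. It lies in a row of 7 *Tmprss11* genes on chromosome 5 (86231481 to 86745807). Of its neighbours, *Tmprss11e* had 9, 6 and 46 counts and *Tmprss11g* had 0, 0 and 13 counts, and both were called higher with rLif against eKO and against control. The other 4 genes of the row were below 10 luminal counts. *Prss8*, with 12240, 13113 and 12548 counts, was called in none of the luminal comparisons.

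The Kunitz inhibitors of matriptase and prostasin differed from one another. *Spint1* had 15865, 4437 and 10065 counts and was 4.07-fold lower in the eKO-labelled library than in control and 2.5-fold higher with rLif than in eKO. *Spint2* had 32246, 26534 and 23948 counts, with a log2 ratio of -0.47 in eKO against control (-0.49 to -0.44), and was not called. On the RPKM scale, *Spint2* exceeded *Spint1* in each luminal library.

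Among serpins of clades C to I, *Serping1* (chromosome 2, 84765360 to 84775429) carried the largest change in counts. It had 25571, 4661 and 25473 counts in the control-, eKO- and eKO with rLif-labelled libraries. Its log2 ratio was -2.64 in eKO against control (-2.69 to -2.60), 2.59 with rLif against eKO (2.55 to 2.64) and -0.05 with rLif against control (-0.08 to -0.02). The control- and eKO with rLif-labelled libraries held about the same level. In blastocysts *Serping1* had 250, 301 and 260 counts and was not called.

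Of the plasminogen system, *Plat*, *Plau*, *Serpine2* and *Serpinf2* gave small counts or ratios under the limit. *Plat*, tissue plasminogen activator, had 3728, 5479 and 6930 counts, with a log2 ratio of 0.37 in eKO against control (0.31 to 0.43) and 0.48 with rLif against eKO (0.43 to 0.53), neither called. *Plau*, urokinase, had 4, 0 and 5 counts and was below the filter. *Serpine2*, protease nexin-1, had 2080, 4712 and 3003 counts, and its log2 ratio in eKO against control was 0.99 (0.92 to 1.07), just under the limit. *Serpinf2*, the plasmin inhibitor, had 0, 2 and 0 counts. In the list of coagulation and fibrinolysis genes described below, *Plaur* had 316, 57 and 96 counts and *Anxa2* had 4469, 13818 and 5496. *Plaur* was called lower in eKO and with rLif against control. *Anxa2* was called higher in eKO against control and lower with rLif against eKO. Both are named after their values were seen. The summed stromal markers were also highest in the eKO-labelled library, and their part in the values of *Serpine2* was not tested.

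Of the 9 serpins of these clades tested in eKO against control, 3 were higher and 1, *Serping1*, was lower. That is 44.4%, beside 17.2% of all genes. *Serpinh1* had 9611, 12692 and 7454 counts and *Serpinf1* had 3228, 3723 and 3147 counts, and neither was called in any luminal comparison. *Serpini1*, neuroserpin, had 81, 291 and 120 counts and was 3.16-fold higher in the eKO-labelled library than in control. *Serpinc1*, antithrombin, had 4, 49 and 30 counts and was called higher in eKO and with rLif against control. Windows equal to those of *Zbtb37* made up 32.2% of *Serpinc1*, so its counts are uncertain.

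**Figure D3:**
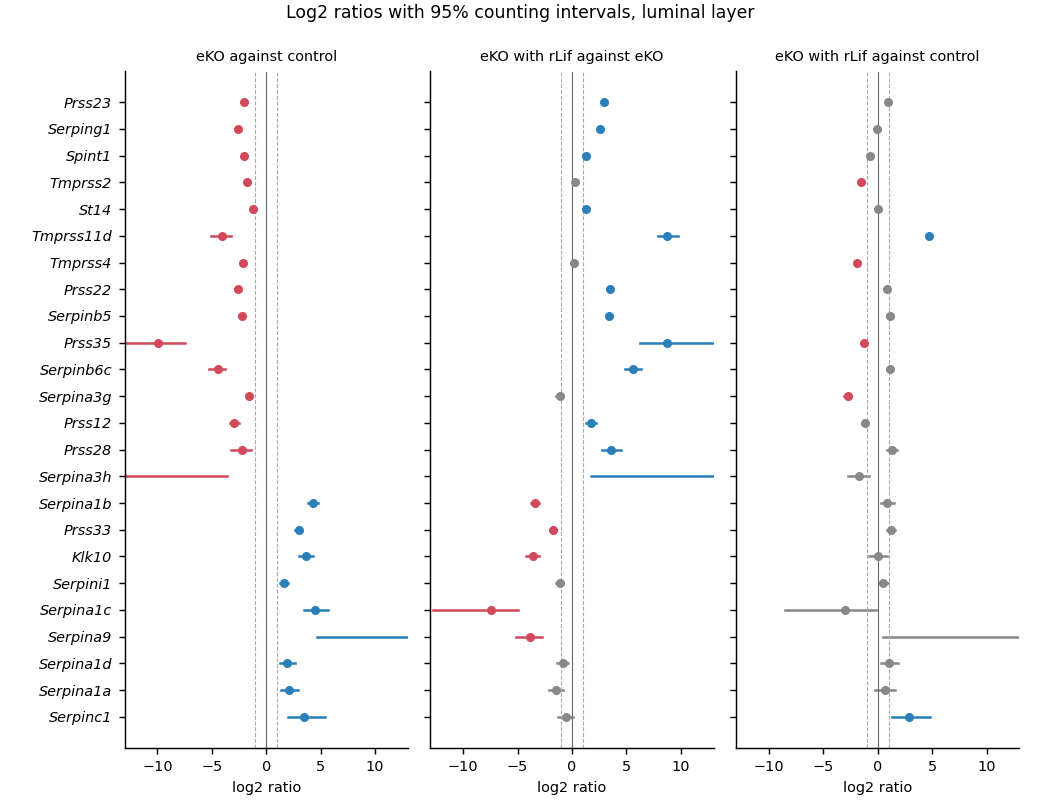
Log2 ratios of scaled counts with 95% counting intervals in the 3 luminal comparisons, for genes called in eKO against control with at least 50 counts summed over the luminal libraries. Blue marks genes called higher, red genes called lower, grey genes not called; dashed lines mark log2 ratios of -1 and 1, a bar without a point marks a bound where 1 library had 0 counts, and bars are clipped at the axis ends. Prss35 at -9.95, which rests on 1 count in eKO, and Tmprss11d at 8.74 are the extreme points of the first and second panels.

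The clade A serpins on chromosome 12 lie in 1 row of 24 genes (103616675 to 104414329), and calls in opposite directions came from neighbours there. *Serpina1b* had 40, 872 and 76 counts in the control-, eKO- and eKO with rLif-labelled libraries. Its log2 ratio was 4.26 in eKO against control (3.80 to 4.76) and -3.38 with rLif against eKO (-3.74 to -3.04). *Serpina1c* had 8, 197 and 1 counts, *Serpina1a* had 18, 88 and 29 counts, and *Serpina9*, known from germinal-centre B cells, had 0, 110 and 7 counts. *Serpina1c* and *Serpina9* were called lower with rLif against eKO and *Serpina1a* was not. *Serpina1d*, with 22, 94 and 47 counts, is named because it completes the group, after its values were seen. All 4 minor α1-antitrypsin genes were highest in the eKO-labelled library and were called higher against control.

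The main gene of the group did not share this. *Serpina1e* had 27368, 40121 and 46103 counts, with log2 ratios of 0.37 in eKO against control (0.34 to 0.39) and 0.34 with rLif against eKO (0.32 to 0.36). It held 99.7%, 97.0% and 99.7% of the counts of *Serpina1a* to *Serpina1e* in the 3 luminal libraries. The genes are near-identical copies: 69.3% of the 100-base windows of *Serpina1c*, 42.8% of *Serpina1a*, 29.3% of *Serpina1d*, 14.8% of *Serpina1b* and 14.4% of *Serpina1e* occur in another gene. How reads that match several copies were counted was not stated, so the split between the copies is uncertain.

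The upstream sequences of *Serpina1b* and *Serpina1e* are shown because their counts differed so widely. They lie at chr12:103738190-103738439, minus strand and chr12:103956898-103957147, minus strand (RefSeq, GRCm38.p6). The best local alignment of the windows from 250 bases before to 50 after the start had 244 identical bases in 250 columns, or 97.6%, with the annotated start of *Serpina1e* 50 bases further along. Aligned windows of the other pairs within *Serpina1a* to *Serpina1e* had 91.4% to 96.3% identical columns.
Serpina1b: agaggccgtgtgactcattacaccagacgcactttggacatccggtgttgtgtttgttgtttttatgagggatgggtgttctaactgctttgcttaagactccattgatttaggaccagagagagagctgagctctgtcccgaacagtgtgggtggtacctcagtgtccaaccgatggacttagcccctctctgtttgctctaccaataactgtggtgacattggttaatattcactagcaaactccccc
Serpina1e: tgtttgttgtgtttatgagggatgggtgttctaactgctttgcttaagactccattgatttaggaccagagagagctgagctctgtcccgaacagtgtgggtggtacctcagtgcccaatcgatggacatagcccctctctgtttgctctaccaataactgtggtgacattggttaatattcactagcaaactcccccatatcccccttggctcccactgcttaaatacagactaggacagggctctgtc

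Further along the same row, genes of the *Serpina3* group were lower in the eKO-labelled library. *Serpina3g*, an intracellular inhibitor of cathepsins, had 638, 236 and 97 counts, with log2 ratios of -1.62 in eKO against control (-1.84 to -1.40) and -2.76 with rLif against control (-3.09 to -2.45). Its exons overlap those of *Serpina3f*, so its counts are uncertain. *Serpina3h*, annotated as a pseudogene, had 41, 0 and 13 counts and was at least 15.5-fold lower in eKO than in control. *Serpina3i* had 18, 0 and 2 counts, at least 6.83-fold lower. *Serpina3n*, at the end of the row, had 92, 70 and 133 counts and was not called. The level of *Serpina3g* was lowest with rLif, unlike that of *Serpina3h*.

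The clade B serpins, which act mostly inside cells, gave 1 gene higher and 3 lower of 11 in the eKO-labelled library against control. That is 36.4%, beside 17.2% of all genes, of which 8.08% were higher and 9.15% lower. *Serpinb5*, maspin, had 457, 111 and 1052 counts, 4.68-fold lower in eKO than in control and 10.5-fold higher with rLif than in eKO. *Serpinb6c* had 350, 18 and 780 counts, 22.1-fold lower and 47.8-fold higher in the same comparisons. Its neighbour *Serpinb6a*, an inhibitor of cathepsin G, had 2781, 1952 and 3767 counts, and rLif against eKO gave a log2 ratio of 1.09 (1.01 to 1.17), a call lost with scaling by total counts. Exons of *Serpinb6a* overlap another gene. *Serpinb8* had 173, 343 and 94 counts and *Serpinb7*, megsin, had 0, 14 and 0 counts, and both were called lower with rLif against eKO.

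Of the 27 kallikreins in the chromosome 7 row (43690418 to 44229617), the 4 neighbours *Klk11*, *Klk10*, *Klk9* and *Klk8* and the distant *Klk1* passed the luminal filter. *Klk10*, an epithelial kallikrein, had 25, 345 and 26 counts in the control-, eKO- and eKO with rLif-labelled libraries. Its log2 ratio was 3.60 in eKO against control (3.01 to 4.25) and -3.59 with rLif against eKO (-4.22 to -3.01). *Klk8*, neuropsin, had 236, 463 and 101 counts and was called only with rLif against eKO, at 4.16-fold lower. As 19.0% of its 100-base windows occur in *2310002F09Rik*, its counts are uncertain. *Klk11* had 292, 741 and 313 counts and *Klk9* had 1, 16 and 7 counts, both named for their place after their values were seen. *Klk1*, tissue kallikrein, had 7, 12 and 0 counts. All 5 genes were highest in the eKO-labelled library. The next genes in the row, *Klk7*, *Klk6* and *Klk5*, had 0 luminal counts and were detected in blastocysts.

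**Figure D4:**
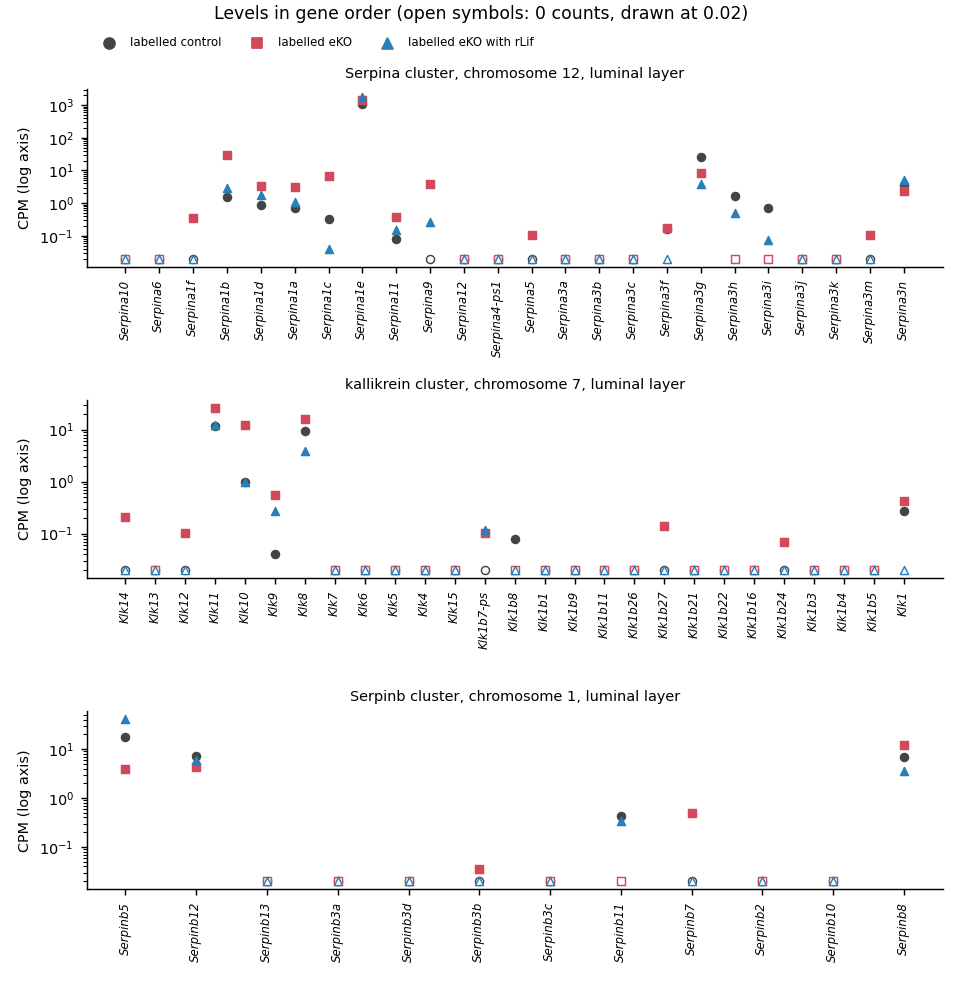
CPM on log axes in the 3 luminal libraries for every gene of 3 rows of neighbouring genes, in chromosomal order and without scale of distance (circles control, squares eKO, triangles eKO with rLif; open symbols have 0 counts and are drawn at 0.02). In the Serpina row, Serpina1b, Serpina1d, Serpina1a and Serpina1c are highest in eKO and Serpina3g, Serpina3h and Serpina3i are highest in control; in the kallikrein row, Klk11 to Klk8 are highest in eKO; in the Serpinb row, Serpinb5 and Serpinb8 have opposite orders.

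Lif acts through STAT3, and STAT factors bind sites spelled TTCNNNGAA, so RefSeq promoters from 250 bases before to 50 after the start were searched for these letters, which read the same on both strands. RefSeq entries were found for 119 of the 150 genes, with 139 promoters. The letters were in 16 of these promoters, or 11.5%, and in 8.30% of all 32851 promoters. Among genes called lower in the eKO-labelled library than in control, 13 of 19 were matched and 4 of their 19 promoters held the letters, those of *Prss23*, *Prss40*, *Serpina3g* and *Serpina3i*. As 7 of these promoters are of *Prss23*, the promoters are not separate units. By gene, the letters were in 4 of these 13 genes, in 13 of the 119 genes and in 2582 of all 27025 genes. Among genes called higher, 10 of 12 were matched and 1 of 10 promoters held them, that of *Klk10*. The full palindromic oestrogen response element was in 0 of the 139 promoters and in 0.07% of all promoters, and the palindromic element of progesterone and glucocorticoid receptors was in 3 of the 139, or 2.16%, and in 0.475% of all. A match is a description of the letters and does not show binding.

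*Prss23* and *Klk10* were called in opposite directions, and each held 1 match in a promoter. The 250 bases before the start are shown with the match in capitals, at chr7:89518205-89518454, minus strand for 1 of the 7 promoters of *Prss23* and chr7:43780804-43781053, plus strand for *Klk10* (RefSeq, GRCm38.p6). The match begins 230 bases before the start in *Prss23* and 238 bases before it in *Klk10*.
Prss23: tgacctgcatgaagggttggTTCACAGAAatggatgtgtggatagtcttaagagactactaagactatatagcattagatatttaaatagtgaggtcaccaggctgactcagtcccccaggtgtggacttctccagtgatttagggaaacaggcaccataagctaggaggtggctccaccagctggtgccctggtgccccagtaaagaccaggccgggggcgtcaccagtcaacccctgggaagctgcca
Klk10: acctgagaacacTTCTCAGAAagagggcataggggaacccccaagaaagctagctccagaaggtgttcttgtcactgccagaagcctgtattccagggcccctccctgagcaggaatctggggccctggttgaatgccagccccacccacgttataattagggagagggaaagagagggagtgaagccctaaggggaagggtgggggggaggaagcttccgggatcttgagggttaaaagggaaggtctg

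The other genes of these pathways were taken from 3 lists of coagulation and fibrinolysis genes, further serine proteases and further protease inhibitors. Of 23 coagulation and fibrinolysis genes tested in the luminal layer, 3 were higher and 12 lower in the eKO-labelled library than in control, with a median log2 ratio of -1.47, and 6 were higher and 1 lower with rLif than in eKO. The share called was 65.2% and 30.4%, beside 17.2% and 15.6% of all genes. Kininogen *Kng2* had 325, 0 and 448 counts and fibrinogen *Fga* had 197, 1 and 979 counts. *F3*, tissue factor, had 20138, 3979 and 4016 counts and was called lower in eKO and with rLif against control. *Kng2* and *Fga* were thus near 0 in 1 library, while *F3* had almost equal counts in the 2 eKO libraries.

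Of 32 further serine proteases, 1 was higher and 6 were lower in the eKO-labelled library than in control, and 5 were higher and 3 lower with rLif than in eKO. These shares, 21.9% and 25.0%, were not far above the 17.2% and 15.6% of all genes. *Pcsk6*, a proprotein convertase, had 1229, 7 and 942 counts, 200-fold lower in eKO than in control and 148-fold higher with rLif than in eKO. Of 24 further inhibitors, 4 were higher and 1 was lower in eKO, and 0 were higher and 6 lower with rLif than in eKO. These shares, 20.8% and 25.0%, stand beside the same 17.2% and 15.6%, and no list was tested. *Spint3*, a Kunitz-domain gene, had 24, 301 and 83 counts, and *Eppin*, an inhibitor known from the male tract, had 364, 1368 and 435 counts. The median log2 ratio in eKO against control was -0.50 for the proteases and 0.55 for the inhibitors, beside 0.01 over all genes.

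In blastocysts few of the genes differed between groups. Of the 53 genes tested, 3 were higher and 2 lower in embryos from *Lif* eKO females than in those from controls, with a background of 3.15% in either direction, 1.29% higher and 1.86% lower. With rLif against eKO, 0 were higher and 2 lower, with a background of 3.75% in either direction, 0.914% higher and 2.83% lower. With rLif against control, 1 was higher and 2 were lower, with a background of 4.94% in either direction, 0.948% higher and 3.99% lower. The first share, 9.43% of the genes tested or 5 genes, lay above its background, and the last 2, 3.77% and 5.66%, were near theirs. Under edgeR's exact test at an assumed dispersion of 0.1, described below, 0 genes were called in the first comparison, beside 0.437% of all genes. The medians of the 3 comparisons were -0.04, -0.14 and -0.15 on the log2 scale.

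The calls in eKO against control were mostly of low counts. *Serpinb2*, the plasminogen activator inhibitor PAI-2, had 0, 12 and 30 counts in control, eKO and eKO with rLif, at least 3.9-fold and 9.81-fold above control. It had 0 counts in every luminal library. *Serpinb8* had 0, 14 and 0 counts, and *Serpina1e* had 4, 30 and 15 counts. *Klk7* had 495, 205 and 354 counts, with a log2 ratio of -1.31 in eKO against control (-1.55 to -1.07). *Prss23* had 52, 14 and 22 counts, with a log2 ratio of -1.93 (-2.90 to -1.06). For *Serpina1e* and *Prss23*, the lowest luminal CPM was 765 and 130 times the highest blastocyst CPM. The part of RNA from the uterus in the calls of these genes was not tested. *Klk7* was the 1 called gene of this comparison with over 100 counts in a library, and rLif against eKO gave it a log2 ratio of 0.80 (0.54 to 1.05), which was not called.

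With rLif, *Serpinh1* was the 1 abundant gene called. It had 11452, 10404 and 5530 counts in control, eKO and eKO with rLif. Its log2 ratio was -1.08 with rLif against control (-1.12 to -1.03) and -0.90 with rLif against eKO (-0.95 to -0.86). The library with rLif was the low one, and control and eKO were within 1.13-fold of each other. *Serpinf1* had 21, 10 and 0 counts and was called lower with rLif in both comparisons. Of the listed pathway genes, *F2r*, a thrombin receptor, had 506, 628 and 183 counts, and *Htra1*, a secreted protease, had 3786, 2747 and 1385 counts, both called lower with rLif than in control. The stromal markers summed to 160, 170 and 157 CPM in these libraries. Of the 11 stromal markers tested, 3 were lower and 0 higher in eKO against control (median log2 ratio -1.30), and 4 were lower and 0 higher with rLif against control (median -1.12). Of 5 glandular markers, 2 were lower and 0 higher with rLif against control (median -2.01). The 8 primitive endoderm markers summed to 1735, 1868 and 1539 CPM. Of these, 1 was lower and 0 higher with rLif against control (median -0.29). Against eKO, 2 were lower and 0 higher with rLif (median -0.43). The part of the stromal, glandular and primitive endoderm markers in the calls of *Serpinh1* and *Serpinf1* was not tested.

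The surface proteases and their inhibitors were level in blastocysts. *St14* had 5221, 5025 and 5117 counts, *Spint1* had 7359, 7480 and 7836 counts and *Spint2* had 6920, 7134 and 6715 counts. The log2 ratios of these 3 genes lay between -0.09 and 0.08 over the 3 comparisons. *Tmprss2* had 7165, 8611 and 6899 counts and *Prss8* had 2760, 3177 and 2554 counts. No gene of this group was called in blastocysts.

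**Figure D5:**
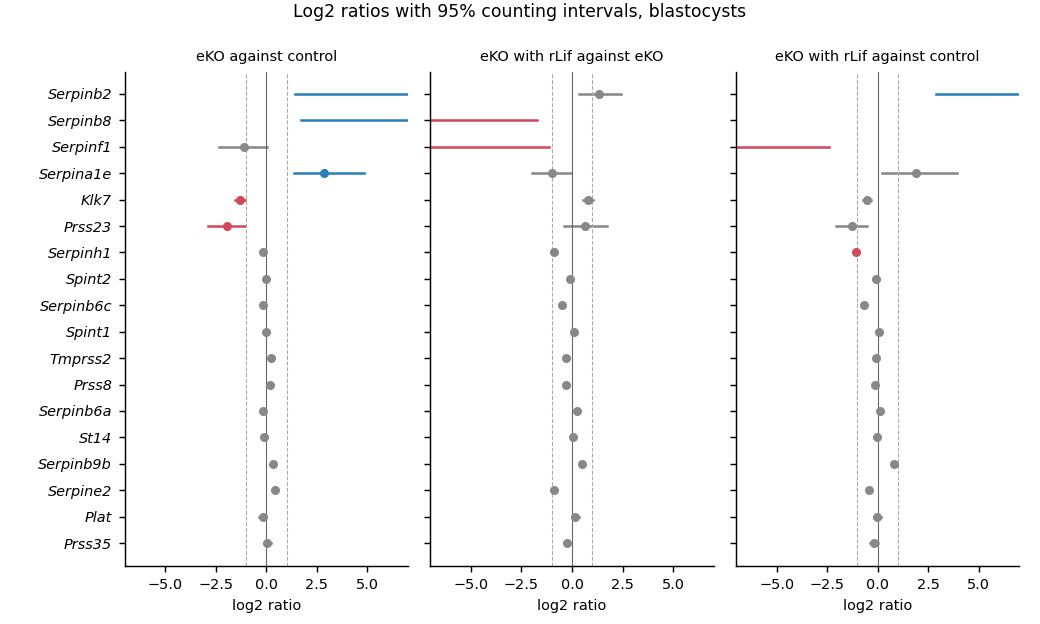
Log2 ratios of scaled counts with 95% counting intervals in the 3 blastocyst comparisons, for the genes called there and the abundant genes (blue called higher, red called lower, grey not called; dashed lines at -1 and 1; a bar without a point marks a bound where 1 library had 0 counts, and bars are clipped at the axis ends). Serpinh1 is called lower with rLif against control, and St14, Spint1 and Spint2 lie near 0 in all panels.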

How the data were processed

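RNA of 6 libraries, 1 for each group, was analysed. The authors prepared SMART-seq v4 libraries, used HISAT2 for alignment to GRCm38/mm10 and featureCounts for counting (Subread 2.0.0, as given in the submitters' processing notes). The deposited values were whole-number counts per gene without normalization, although the study's methods speak of RPKM. Annotation release, strand and multi-mapping settings were not given in the sources used here. Libraries were grouped by the labels.

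TMM factors from edgeR 4.0.16 (R 4.3.3) scaled the counts, within a tissue for comparisons and over all 6 libraries for CPM and RPKM between tissues. Genes with at least 10 counts over the 3 libraries of a tissue were tested. Ratios have exact 95% Clopper-Pearson intervals, and a gene was called when all of the interval was above a log2 ratio of 1 or below -1. With 0 counts in 1 library, its floor was set to 3 counts and the fold given as a bound. Intervals and bounds cover at most counting error. PCR reads without molecular identifiers are not independent molecules, so the intervals can be too narrow even for that.

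The alternatives were DESeq2 1.42.0 size factors, total counts, other count filters, log2 limits of 0 and 2, and edgeR's exact test with the study's limits at an assumed dispersion of 0.1. Copies were measured as 100-base windows of GENCODE M21 transcripts found in another gene, for 149 of the 150 genes. Named are up to 10 genes called in each direction of each comparison by the interval bound nearest 0, the 8 genes of highest RPKM in each tissue, a list of genes with known roles, and up to 4 called genes of each pathway list. The values of 1 gene are not reported here. The genes named from the pathway lists were not always those with the largest bound. The genes and lists were chosen with earlier results of these data known.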

Additional observations from a re-analysis of the deposited data

How the results depend on the processing

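No alternative reversed a call, which the rule made all but impossible. The scalings shifted the median of all genes by up to -0.18 on the log2 scale, while a called interval lies wholly above 1 or below -1. Other filters and limits leave the ratios as they are. The counts of genes called in the luminal comparisons (eKO against control 31, rLif against eKO 30, rLif against control 13) and in the blastocyst comparisons in the same order (5, 2 and 3) depended mostly on the limit. A log2 limit of 0 gave 52, 53 and 46 of the 65 genes in the luminal layer, beside 74.7%, 71.4% and 66.2% of all genes. In blastocysts it gave 22, 24 and 26 of the 53 genes, beside 44.8%, 52.7% and 52.9% of all genes. A limit of 2 gave 17, 12 and 3 in the luminal layer, beside 5.53%, 4.78% and 1.88%. In blastocysts that limit gave 0, 0 and 2, beside 0.672%, 0.625% and 1%. With at least 50 counts, rLif against control in the luminal layer gave 8 of 47 genes, beside 7.61% of all genes. The blastocyst comparisons then gave 2, 0 and 1 of 33 genes, beside 1.69%, 2.63% and 3.62%. The study's limits with edgeR's exact test at a dispersion of 0.1 gave 22, 19 and 3 in the luminal layer and 0, 0 and 2 in blastocysts. Over all genes these limits called 7.96%, 7.07% and 2.18% in the luminal layer and 0.437%, 0.39% and 0.834% in blastocysts. DESeq2 size factors kept every call of these 6 comparisons. Total counts lost *Serpinb6a* and gained *Klk11* with rLif against eKO, and lost *Prss29* and gained *Prss12*, *Klk8* and *Prss53* with rLif against control. The median log2 ratio changed sign with total counts in luminal rLif against control (0.04 to -0.14) and with at least 50 counts in blastocyst rLif against eKO (-0.14 to 0.03). The counts of genes separated between tissues stayed within 28 to 37 for the luminal layer and 16 to 19 for blastocysts. Over all genes, the share ran from 15.5% to 36.9% for the luminal layer and from 12.5% to 36.6% for blastocysts.

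No paired analysis was possible because the labels give no replicate numbers that groups share and do not tie the pooled tissues to females, and 1 library per group leaves none to leave out. Spread between animals, dissection and pooling are therefore not covered by any interval, and genes with few counts, such as *Plau* and *Klk1*, are limited by depth.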
